A study of Rattus norvegicus with 6 samples.

Results

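The genes studied were 10 members of the NRF2 pathway, the main antioxidant response of animal cells, measured in liver RNA from rats of the obesity-prone Sprague Dawley strain. They were chosen by name from the loci of the deposited expression table, and all 10 were found, each on 1 locus, among 32158 loci with a gene symbol. The members are the transcription factor gene Nfe2l2, which encodes NRF2, its repressor Keap1, and the antioxidant genes Gclc, Gclm, Prdx1, Srxn1, Txnrd1, Hmox1, Blvra and Nqo1. All rats were male, ate the control diet (CD) for 1 week and carried no transgene named in the labels. One group then stayed on the CD and the other ate a Western diet (WD) for 2 weeks. All were fasted overnight and refed for 1 h, and the left lobe was taken under isoflurane. Ages are not given in the sources used here. Total RNA was measured beside RNA from a sucrose gradient. In the gradient, the light fraction held mRNAs with 3 or fewer ribosomes and the heavy fraction held mRNAs with 4 or more. RNA of 3 rats was pooled for each diet and kind of RNA, giving 6 libraries with 1 library in each group. No value therefore has a replicate, no test between diets could be made, and the spread between animals is unknown. The diets differed in fat, sucrose and cholesterol, and also in the content of ethoxyquin, a synthetic antioxidant added to feed, so that the parts of these components cannot be told apart.

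NRF2 is made continuously, bound in the cytoplasm by KEAP1 and degraded by the proteasome. Electrophiles and oxidants modify cysteines of KEAP1, NRF2 escapes, enters the nucleus with a small MAF protein and binds antioxidant response elements beside its target genes. In liver the pathway is known for the synthesis of glutathione, the thioredoxin and peroxiredoxin systems, the breakdown of heme and the detoxification of foreign compounds. Control of NRF2 itself acts largely on the protein, which these RNA data do not measure.

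The core of the antioxidant response element was searched as TGACNNNGC on both strands of promoters from RefSeq (assembly GRCr8), each reaching from 250 bases before to 50 bases after a gene's start. A promoter was listed for 9 members, all but Hmox1, and 5 of them held the core in at least 1 promoter. Of all genes listed, 13.1% did so, and 4038 of all 33469 promoters (12.1%) held the core. The 5 stretches are shown because they match the core letters of the element through which NRF2 is known to act. Each is given 5′ to 3′ on the gene's strand, with capitals marking the core or its reverse complement.
Gclm: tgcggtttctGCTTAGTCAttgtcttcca
Prdx1: cagggaaagcGCTGAGTCAtaccccgccg
Txnrd1: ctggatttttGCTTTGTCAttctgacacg
Blvra: ttaaatatttGCTGGGTCAccgaagtgga
Nfe2l2: gactagccatTGACGCCGCctc
The stretch of Gclm lies at chr2:213031953-213031981 (plus strand), that of Prdx1 at chr5:135383761-135383789 (plus strand) and that of Blvra at chr3:134802755-134802783 (plus strand). Those of Txnrd1, in 1 of its 2 listed promoters, and of Nfe2l2 lie on the minus strand, at chr7:22755964-22755992 and chr3:81028950-81028971. In Gclm, Prdx1, Blvra and Txnrd1 the core stands before the start, between 172 bases (Gclm) and 70 bases (Txnrd1) upstream. In Nfe2l2 it lies within the transcript, 39 to 47 bases after the start. No match was found in the listed windows of Keap1, Gclc, Nqo1 and Srxn1, which says only that these letters are not in those windows. A match is a match of letters, and binding was not measured.

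The deposited unit is FPKM, the number of sequenced fragments scaled by transcript length and library size. Whole fragment numbers behind the values were inferred for all 10 members. Over all loci with such numbers they summed to between 240102 (CD light) and 744222 (WD light) per library. These sums are not library totals, since loci without such numbers, Alb among them, are left out. The 95% intervals given below were computed from those numbers. They cover counting error only, compare libraries rather than diets, and are not adjusted for the number of comparisons. The bounds that the quantification software gave were wider for most values and overlapped for every member in each comparison of 2 libraries. The WD light library stood apart from the other 5, with the greatest depth, the largest sum of FPKM over loci with a symbol (867734, against 617369 to 700724) and a sum of 292 FPKM over the 4 of 8 red blood cell markers found, against 11.2 to 40.6 FPKM elsewhere. Of that sum, the globin loci Hbb and Hbb-b1 made up 242 and 40.1 FPKM, whereas Alas2 was lowest in that library, at 7.18 FPKM. The hepatocyte markers were all detected in every library and summed to between 38820 FPKM (WD light) and 125100 FPKM (WD heavy). Markers of endothelial and stellate cells, 8 of 10 found, summed to between 72.0 and 99.3 FPKM. In such bulk RNA, fewer cells of a type and less RNA per cell cannot be told apart.

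**Figure D1:**
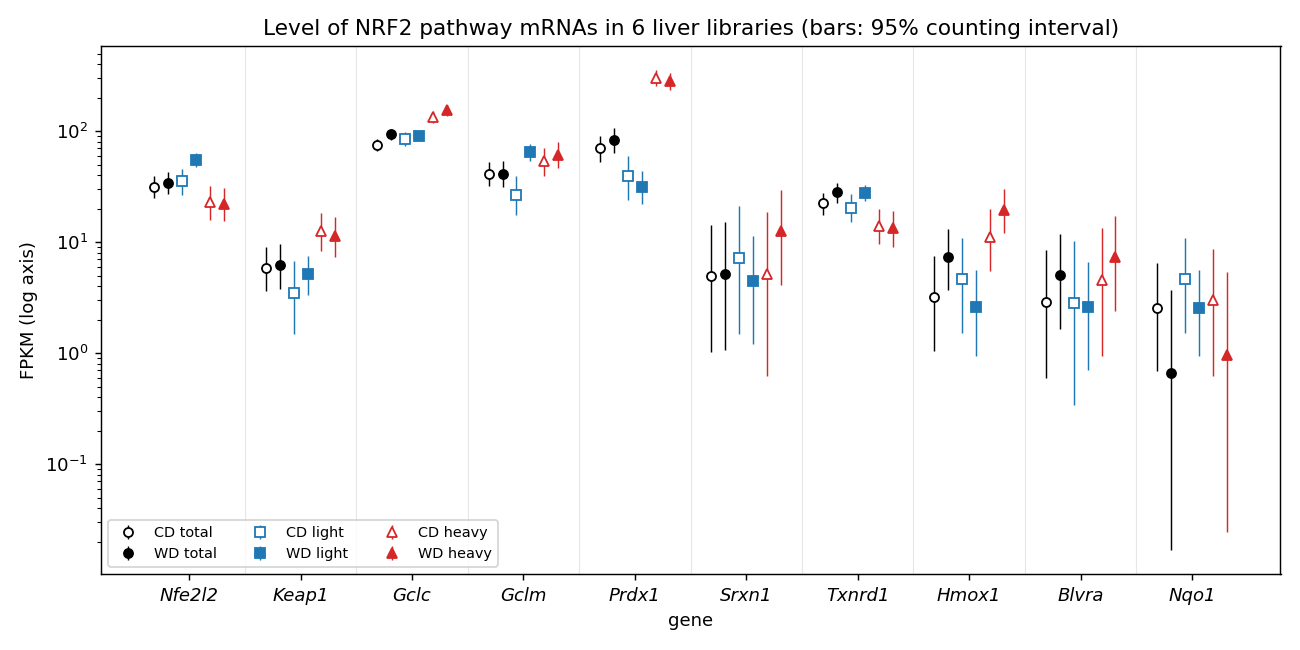
Level of the 10 mRNAs in FPKM (log axis) in the 6 libraries, with open symbols for the CD, filled symbols for the WD, and bars for the 95% counting interval of 1 pooled library. Prdx1 stands at 304 and 281 FPKM in the heavy fraction and at 31.7 to 82.4 FPKM elsewhere, whereas the lowest genes have bars that span most of their row.

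In total RNA, levels per length separated the members into a group of 5 abundant mRNAs and a group of 5 scarce ones, and these names are used below in that sense. In CD total RNA the order was Gclc (75.6 FPKM), Prdx1 (69.9), Gclm (41.5), Nfe2l2 (31.6) and Txnrd1 (22.4), followed by Keap1 (5.91), Srxn1 (4.94), Hmox1 (3.20), Blvra (2.89) and Nqo1 (2.54). Neighbours in this order had overlapping counting intervals, except Txnrd1 and Keap1. The same gap between the 5 abundant and the 5 scarce genes was present in WD total RNA, where the counting intervals of Txnrd1 (22.7 to 34.3 FPKM) and Hmox1 (3.68 to 13.2 FPKM) did not meet. Among the abundant genes in the WD, Prdx1 and Gclm were apart as well. In total RNA the scarce genes rested on 1 to 20 fragments each, and the abundant genes on 55 to 291. The gap was not kept in every fraction. In WD heavy RNA Hmox1 (19.65 FPKM) stood above Txnrd1 (13.29), and in both CD fractions the intervals at the gap overlapped.

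The first pair consists of the activator and its repressor. The locus of Nfe2l2 (chr3:62497570-62524996, Rnor_6.0, as are all loci given below) was measured at 31.6 FPKM in CD total RNA, 34.3 in WD total RNA, 35.2 in CD light, 55.0 in WD light, 22.8 in CD heavy and 22.3 in WD heavy. Its level was therefore alike in the total RNA and in the heavy fraction of both diets, and highest in the WD light fraction. Keap1 (chr8:22250517-22259779), the adaptor that hands NRF2 to a ubiquitin ligase, was measured at 5.91 FPKM in CD total RNA, 6.17 in WD total RNA, 3.46 in CD light, 5.17 in WD light, 12.5 in CD heavy and 11.3 in WD heavy. In contrast to Nfe2l2, Keap1 was highest in the heavy fractions. The heavy over light ratio of Nfe2l2 was 0.648 (95% interval 0.413 to 1.00) in the CD and 0.405 (0.274 to 0.583) in the WD. That of Keap1 was 3.63 (1.60 to 9.23) in the CD and 2.19 (1.21 to 3.95) in the WD.

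The ratio of one gene to another within a library does not depend on how libraries are scaled. Nfe2l2 exceeded Keap1 by 5.34-fold (3.23 to 9.23) in CD total RNA and by 5.55-fold (3.37 to 9.58) in WD total RNA. In the light fraction the ratio was 10.2 (4.84 to 24.7) in the CD and 10.7 (7.06 to 16.7) in the WD, and in the heavy fraction it was 1.82 (1.07 to 3.13) and 1.97 (1.15 to 3.43). The activator and repressor mRNAs were thus distributed unequally over the gradient in both diets. From light to heavy the ratio was multiplied by 0.179 (0.0638 to 0.466) in the CD and by 0.185 (0.0913 to 0.377) in the WD, in libraries that the diets do not share. Between diets the ratio differed little in size in each kind of RNA, with WD over CD values of 1.04 (0.488 to 2.21), 1.05 (0.387 to 2.54) and 1.08 (0.495 to 2.36) in total, light and heavy RNA. These intervals are wide enough to hold a difference of 2-fold.

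**Figure D2:**
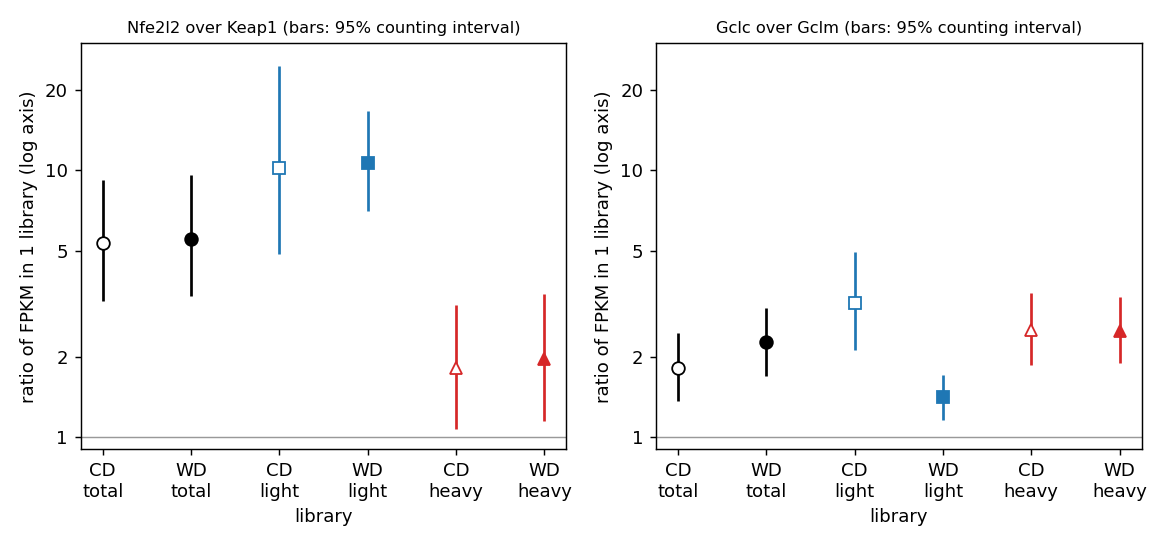
Ratio of Nfe2l2 to Keap1 (left) and of Gclc to Gclm (right) within each of the 6 libraries, on log axes, with bars for 95% counting intervals. The Nfe2l2 to Keap1 ratio is near 10 in both light libraries and near 2 in both heavy ones, and the Gclc to Gclm ratio is lowest in the WD light library, at 1.41.

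The next pair makes glutathione. Gclc encodes the catalytic subunit and Gclm the modifier subunit of glutamate-cysteine ligase, the rate-limiting enzyme of glutathione synthesis. Gclc (chr8:85059050-85097468) was measured at 75.6 FPKM in CD total RNA, 93.5 in WD total RNA, 85.5 in CD light, 90.8 in WD light, 134.8 in CD heavy and 154 in WD heavy. It was the most abundant member in both total RNA and both light libraries, and second to Prdx1 in the heavy ones. Gclm (chr2:225827503-225847874) was measured at 41.5 FPKM in CD total RNA, 41.3 in WD total RNA, 26.9 in CD light, 64.6 in WD light, 53.5 in CD heavy and 61.6 in WD heavy. The CD light value of Gclm was the low one, and its 95% counting interval (17.7 to 39.1 FPKM) did not meet that of the WD light value (54.3 to 76.1 FPKM).

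Gclc in WD total RNA was 1.24-fold its CD level (1.04 to 1.47), the only member whose interval in total RNA excluded 1, although this ratio lies inside the thresholds used to call a difference. The corresponding value of Gclm was 0.994 (0.682 to 1.45). In the light fraction, the WD over CD ratio of Gclm was 2.40 (1.58 to 3.77) against 1.06 (0.894 to 1.27) for Gclc. The catalytic subunit mRNA exceeded the modifier mRNA by 3.18-fold (2.12 to 4.95) in CD light and by 1.41-fold (1.16 to 1.71) in WD light, so that the ratio of the pair was multiplied by 0.442 (0.272 to 0.699). In the heavy fraction the 2 ratios were 2.52 and 2.50, and in total RNA 1.82 and 2.27. The difference between diets in the proportion of the subunit mRNAs was thus seen in the light fraction, and it rests on 2 libraries, of which WD light stood apart and CD light held the low value of Gclm. The heavy over light ratio of Gclm was 1.99 (1.22 to 3.30) in the CD and 0.954 (0.692 to 1.30) in the WD. Gclc had 1.58 (1.31 to 1.91) and 1.70 (1.47 to 1.96).

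Relative to the other mRNAs of each library, Prdx1 and Txnrd1 were spread over the gradient in opposite ways. Prdx1 (chr5:135536412-135551990), a peroxidase that removes hydrogen peroxide with electrons from thioredoxin, was measured at 69.9 FPKM in CD total RNA, 82.4 in WD total RNA, 39.1 in CD light, 31.7 in WD light, 304 in CD heavy and 281 in WD heavy. Both heavy values lay far above both light ones, with a heavy over light ratio of 7.77 (4.91 to 12.9) in the CD and 8.87 (6.15 to 13.1) in the WD. Among the 10201 loci compared, these stood at the 96.2 and 98.5 percentiles. Reads of Prdx1 are uncertain in origin, since RefSeq lists 7 Prdx1 pseudogenes and 1 further gene named after it in the rat, and how such reads were assigned is not stated.

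Txnrd1 (chr7:26946124-26984400), the selenoenzyme that reduces thioredoxin, was measured at 22.4 FPKM in CD total RNA, 28.1 in WD total RNA, 20.4 in CD light, 28.0 in WD light, 14.1 in CD heavy and 13.3 in WD heavy. Its heavy values were the lowest of the 6, and heavy over light was 0.687 (0.427 to 1.09) in the CD and 0.474 (0.311 to 0.702) in the WD. The Prdx1 to Txnrd1 ratio was 1.91 in CD light, 1.13 in WD light, 21.6 in CD heavy and 21.1 in WD heavy. From light to heavy it was thus multiplied by 11.3 (5.72 to 22.5) in the CD and by 18.7 (10.7 to 32.9) in the WD. Srxn1 (chr3:147609094-147632801), which restores overoxidized peroxiredoxins, was measured at 4.94 FPKM in CD total RNA, 5.17 in WD total RNA, 7.23 in CD light, 4.43 in WD light, 5.18 in CD heavy and 12.6 in WD heavy. These values rest on 2 to 5 fragments each. The WD over CD ratio of Srxn1 in the heavy fraction, 2.44 (0.400 to 25.6), was accordingly not distinguishable from 1 at this depth.

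**Figure D3:**
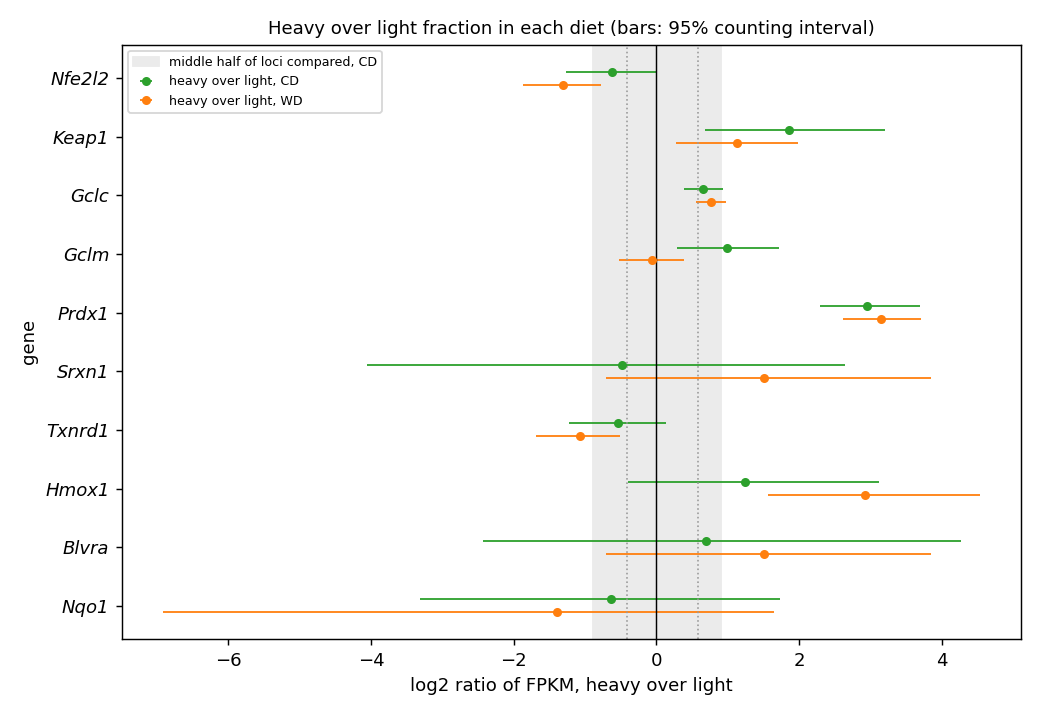
Log2 ratio of FPKM in the heavy over the light fraction for each member in the CD (green) and the WD (orange), without a pseudocount, with bars for 95% counting intervals, dotted lines at the thresholds and a grey band from the first to the third quartile of all loci compared in the CD. Prdx1 and Keap1 stand to the right of 0 in both diets, and Nfe2l2 and Txnrd1 to the left.

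Heme breakdown is served by Hmox1, the inducible heme oxygenase that opens heme to biliverdin, iron and carbon monoxide, and by Blvra, which reduces biliverdin to bilirubin. Hmox1 (chr19:14508615-14515456) was measured at 3.20 FPKM in CD total RNA, 7.37 in WD total RNA, 4.69 in CD light, 2.59 in WD light, 11.1 in CD heavy and 19.7 in WD heavy. It was higher in the WD in total RNA and the heavy fraction and lower in the light fraction, on 5 to 20 fragments per library. The WD over CD ratio was 2.30 (0.737 to 8.45) in total RNA, 1.78 (0.811 to 4.10) in the heavy and 0.552 (0.140 to 2.29) in the light fraction, so that all 3 intervals included 1. Its heavy over light ratio was 2.36 (0.757 to 8.68) in the CD and 7.60 (2.94 to 23.1) in the WD, where it stood at the 98.1 percentile of loci.

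Kupffer cells, the liver macrophages that break down red blood cells, also express Hmox1. Their 12 markers, of which Timd4 was at 0 in every library, summed to 143 FPKM in CD total RNA, 175 in WD total RNA, 120 in CD light, 133 in WD light, 192 in CD heavy and 225 in WD heavy. In total RNA 4 of the 11 markers compared were called higher in the WD (Cd163, Cd68, Marco and Csf1r) and 1 lower (C1qb), beside 17.7% and 22.7% of loci. The hemoglobin scavenger receptor Cd163 was at 1.52 and 3.17 FPKM on 6 and 12 fragments, with a ratio of 2.09 (0.726 to 6.79), and C1qb at 11.9 and 6.22 FPKM. Their part in the Hmox1 values was not tested. Blvra (chr3:119561289-119577806) was measured at 2.89 FPKM in CD total RNA, 5.04 in WD total RNA, 2.82 in CD light, 2.59 in WD light, 4.54 in CD heavy and 7.39 in WD heavy. With 2 to 5 fragments per library, its WD over CD ratio of 1.74 in total RNA had an interval from 0.339 to 11.2. A pseudogene of Blvra is listed in RefSeq as well.

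Nqo1 encodes a quinone reductase that is widely used as a reporter of NRF2 activity. Its locus (chr19:38422163-38437180) was the lowest member in 5 of the 6 libraries. It was measured at 2.54 FPKM in CD total RNA, 0.664 in WD total RNA, 4.64 in CD light, 2.56 in WD light, 2.99 in CD heavy and 0.973 in WD heavy. The WD value was the lower one in each kind of RNA, with ratios of 0.261 (0.00531 to 2.64), 0.552 (0.140 to 2.29) and 0.325 (0.00620 to 4.05) in total, light and heavy RNA. All rest on 1 to 6 fragments, and no difference was detectable at this depth.

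**Figure D4:**
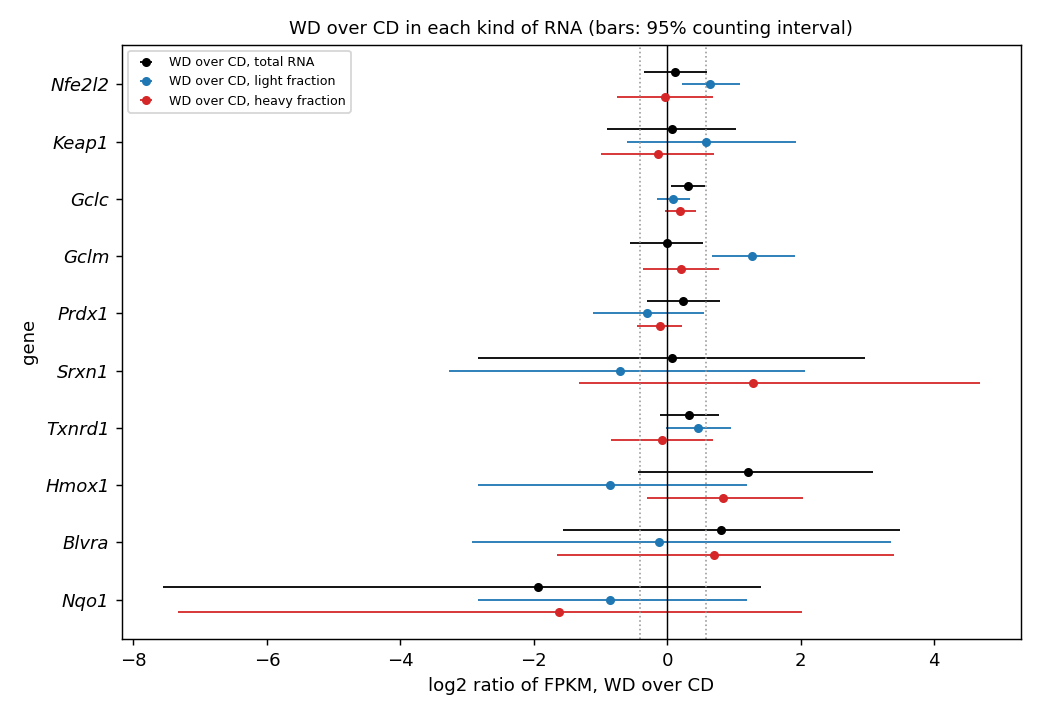
Log2 ratio of FPKM in the WD over the CD for each member in total RNA (black), the light fraction (blue) and the heavy fraction (red), without a pseudocount, with bars for 95% counting intervals and dotted lines at the ratios of 1.5 and 0.75. Of the 30 bars only those of Gclc in total RNA and of Nfe2l2 and Gclm in the light fraction exclude 0. These changes stood at the 71.3, 75.8 and 87.3 percentiles of all loci compared, and the share of loci whose bars exclude 0 was not counted.

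The comparison of the diets asks whether the WD was accompanied by a different level of these mRNAs, and it was counted as a WD over CD ratio of at least 1.5 or at most 0.75, after 0.1 FPKM was added. The study's methods set these 2 numbers on ribosome density in the CD compared with the WD, so that in their direction WD over CD would need to reach 1.333 or 0.667. In total RNA, 2 of the 10 members (Hmox1 and Blvra) were called higher and 1 (Nqo1) lower, beside 17.7% of all loci called higher and 22.7% lower. The median log2 change was 0.18 for the members and 0.02 for all loci, and 8 members lay above 0. In the light fraction, 2 members (Nfe2l2 and Gclm) were higher and 3 (Nqo1, Hmox1 and Srxn1) lower, beside 25.9% and 26.8% of loci, with medians of -0.01 and 0.02. In the heavy fraction, 3 members (Hmox1, Blvra and Srxn1) were higher and 1 (Nqo1) lower, beside 21.7% and 25.8% of loci, with medians of 0.08 and -0.01. The shares of members called were thus near those of loci in general, and in total and heavy RNA every member called was a scarce one. Among all loci called in the light fraction, 49.1% were higher as deposited and 28.3% once all libraries had been brought to 1 common sum of FPKM. Rescaling moved the median of all loci to -0.29 and left the log2 changes of Gclm at 0.91 and of Nfe2l2 at 0.29, and the latter was then no longer called. With the thresholds in the direction of the methods, 4 members (Nfe2l2, Keap1, Gclm and Txnrd1) were higher and the same 3 lower in the light fraction, beside 32.2% and 20.6% of loci. The members called in total RNA and in the heavy fraction were the same in both directions.

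Ribosome density was followed as heavy over light, each fraction's FPKM set against the other's. FPKM is scaled within a library, so this ratio places an mRNA relative to the others of each library. It does not give the share of an mRNA that lies in a fraction. In the CD, 6 members (Prdx1, Keap1, Hmox1, Gclm, Blvra and Gclc) were higher in the heavy fraction and 4 (Srxn1, Txnrd1, Nfe2l2 and Nqo1) lower, beside 32.9% and 36.6% of loci. In the WD, 6 members (Prdx1, Hmox1, Blvra, Srxn1, Keap1 and Gclc) were higher, 3 (Txnrd1, Nfe2l2 and Nqo1) lower and Gclm neither, beside 31.4% and 38.5% of loci. The members' median log2 ratio was 0.66 in the CD and 0.94 in the WD, against 0.01 and 0.00 for all loci. Over the 5 members that averaged 10 FPKM or more, the median in the WD was -0.07, against 0.17 for such loci. The same 5 genes (Prdx1, Keap1, Hmox1, Blvra and Gclc) were called in the heavy direction in both diets, and the same 3 in the light direction. The share of all loci called alike in both diets was not counted. Among these genes the intervals of Blvra and Nqo1 included 1 in both diets. Those of Hmox1, Nfe2l2 and Txnrd1 did so in the CD. Of all loci called in the WD, 44.9% were higher in the heavy fraction as deposited and 55.7% after rescaling. The order of the members from heavy to light had overlapping intervals at each step, except between Gclc and Gclm in the WD.

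The ribosome density change, the heavy over light ratio of the WD divided by that of the CD, uses the same 4 fraction libraries as the ratios above. It was called higher for 3 members (Srxn1, Hmox1 and Blvra) and lower for 5 (Gclm, Keap1, Nqo1, Nfe2l2 and Txnrd1), beside 27.7% and 36.1% of loci. The members' median log2 value was -0.21, against -0.02 for all loci, and rescaling turned both, to 0.12 and 0.28. With the thresholds in the direction of the methods, Txnrd1 was no longer called, leaving 3 higher and 4 lower, beside 32.9% and 30.9% of loci. Gclm, at 0.480 (0.263 to 0.868) and the 21 percentile of loci, was the only member whose interval excluded 1. Keap1 was at 0.605 (0.201 to 1.72). Values of the other abundant members were 0.625 (0.347 to 1.13) for Nfe2l2, 0.690 (0.368 to 1.30) for Txnrd1, 1.08 (0.847 to 1.37) for Gclc and 1.14 (0.605 to 2.11) for Prdx1. Hmox1, at 3.22 (0.615 to 16.0), and Srxn1, at 3.98 (0.275 to 68.2), had the largest values and wide intervals. Of all loci called, 43.4% were higher as deposited and 58.3% after rescaling. Under rescaling 1 member (Gclm) in place of 5 was called lower, beside 27.2% of loci. When total RNA replaced the light fraction as the denominator, which leaves out both light libraries, 1 member (Srxn1) was called higher and 0 lower. Of all loci, 26.7% were then called higher and 31% lower. Gclm had a log2 value of 0.21 in place of -1.06.

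The wider pathway was followed in 8 lists of genes beside the members, and each count in total RNA given next stands beside 17.7% of loci called higher and 22.7% lower. Of 13 regulators and partners of NRF2 compared, 4 were higher in the WD in total RNA and 2 lower, with a median log2 change of 0.18. Among those above 10 FPKM, the ubiquitin ligase subunit Rbx1 was the highest, at 13.7 and 21.6 FPKM on 2 and 3 fragments, and Nfe2l1, which encodes a factor related to NRF2, the lowest, at 16.3 and 15.0 FPKM. Of 14 genes of glutathione synthesis and use, 4 were higher and 0 lower, with a median of 0.27, but 3 of the 4 (Gpx3, Glrx2 and Chac1) rested on 3 or fewer fragments in each library. The other was Glrx3, a glutaredoxin and the highest of those above 10 FPKM, at 12.9 and 19.7 FPKM, with a ratio of 1.53 (0.760 to 3.18). Of 16 thioredoxins, peroxiredoxins and methionine sulfoxide reductases, 1 was higher and 3 lower. The 1 was Msrb2, a mitochondrial methionine sulfoxide reductase, at 12.0 and 26.1 FPKM, with a ratio of 2.17 (1.08 to 4.58).

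None of the 8 genes of superoxide and peroxide removal was called in either direction, with Sod1, the cytosolic superoxide dismutase, the lowest at 123 and 92.5 FPKM. Of 8 genes that supply NADPH, the reductant of both systems, 1 was higher and 1 lower. Me1, the cytosolic malic enzyme, was the lower one, at 69.8 FPKM in the CD and 41.6 in the WD, with a ratio of 0.596 (0.437 to 0.808). The higher one was Idh2, the mitochondrial isocitrate dehydrogenase, with 1.72 (0.847 to 3.61). Of 23 detoxification genes compared, 4 were higher and 5 lower in total RNA, with a median of -0.10. Akr7a3, an aldehyde reductase that is known to be induced by ethoxyquin in rat liver, was the highest of them. It was measured at 12.4 FPKM in CD total RNA, 25.9 in WD total RNA, 10.9 in CD light, 32.8 in WD light, 42.9 in CD heavy and 76.1 in WD heavy, and its ratio in total RNA was 2.09 (1.09 to 4.18). Akr7a3 was thus above its CD level in all 3 kinds of RNA, but the part of ethoxyquin was not tested. Which other members and genes of the list respond to ethoxyquin was not examined. The lowest of those above 10 FPKM, Gstp1, a glutathione transferase, was at 27.7 and 11.3 FPKM, with a ratio of 0.407 (0.144 to 1.02), and reads of such multigene families are uncertain. Of 14 genes of heme metabolism 0 were higher and 1 lower, and of 7 genes of iron handling 0 were higher and 2 lower.

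Over the gradient, 18 of the 23 genes of the detoxification list were called higher in the heavy fraction in the CD and 15 in the WD. This stands beside 32.9% and 31.4% of all loci, and the list's median log2 ratios were 1.14 and 1.19. The heme list had 11 of 14 genes higher in the CD and 6 of 14 in the WD, with medians of 0.77 and 0.22. The list of superoxide and peroxide removal had 5 of 8 and 4 of 8, with medians of 0.81 and 0.72, and the thioredoxin list 8 of 16 and 7 of 16, with medians of 0.62 and 0.53. In the glutathione list 5 of 14 genes were higher and 7 lower in the CD, and 3 higher and 8 lower in the WD, with medians of -0.32 and -0.70, beside 36.6% and 38.5% of all loci called lower. Of the 8 lower in the WD, Ggct, Chac1 and Chac2 had 0 fragments in WD heavy RNA, and Gpx3 and Glrx2 had 1. In the CD, Ggct and Chac2 had 0 heavy fragments, and Gpx3 and Chac1 had 0 light ones. The counts and medians of this list therefore lean on genes near 0. Among hepatocyte markers 7 of 10 were higher in the heavy fraction in each diet. For the density change between diets the lists had medians from -0.30 (iron handling) to 0.27 (superoxide and peroxide removal). Msrb1, a selenium-containing methionine sulfoxide reductase, was measured at 212 FPKM in CD light, 94.2 in CD heavy, 116 in WD light and 136 in WD heavy, and its density change was 2.64 (1.64 to 4.26). Its total RNA was at 190 and 200 FPKM. Esd, an esterase that acts on a glutathione conjugate, was the lowest of the glutathione list among genes above 10 FPKM, at 0.396 (0.160 to 0.925).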

How the data were processed

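RNA of rat liver was sequenced in 6 libraries, 1 for each diet and kind of RNA, with the RNA of 3 rats in each pool. After depletion of ribosomal RNA, the authors used TopHat on Rnor_6.0, then Cufflinks and Cuffnorm, and deposited FPKM values with the software's bounds. The annotation is not given in the sources used here, and the methods describe a separate route for ribosome-bound RNA, so it is not certain that fractions and total RNA were aligned alike.

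Loci were compared where they had a symbol and averaged 1 FPKM or more (10201), and all 10 members passed. A log2 change is of FPKM plus a pseudocount of 0.1 FPKM, which understates changes of low genes. Ratios with an interval have no pseudocount. Called means a ratio of at least 1.5 or at most 0.75, the numbers of the study's methods. Fragment numbers were inferred as the whole numbers that 1 step per gene and 1 factor per library explain, within 0.01 of a whole number. A looser limit of 0.05 was used, for loci above 0 in all libraries, where the stricter pass failed or gave larger numbers, as for Txnrd1. Such numbers existed for 82.6% of the 12460 loci detected in 2 or more libraries, and for 1.92% once values had been jittered by 1%. FPKM cannot tell them from their multiples. All 32 member values of up to 30 fragments had the software bound typical of their number, as did 75.6% of such values over all loci. Nfe2l2, Gclc and Txnrd1 had no value that low, so this check does not cover them. Depth relative to CD heavy was 2.34 in WD light and at most 1.57 elsewhere. Intervals are exact Poisson (levels), exact binomial (2 libraries) and conditional odds ratio (4 libraries or pairs of genes) at 95%. The scripts, in Python 3.11.15 with numpy 2.4.6, pandas 2.3.3, scipy 1.17.1 and matplotlib 3.10.9, were tested on simulated data.

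The members and lists were chosen with earlier results of these data known. Beside the members, most genes named are the highest or lowest of their list among those averaging 10 FPKM or more. The order was by the total RNA change or by the density change. Not all such genes are named, and among list genes density changes are given only for Msrb1 and Esd. Gpx3, Glrx2, Chac1, Ggct and Chac2 average less and are named for their few fragments. Any marker gene could be named. Timd4, at 0 throughout, was not compared. Alternatives were pseudocounts of 1 and 0.01 FPKM, a filter at 10 FPKM on average, no filter, scaling to 1 common sum of FPKM, centring on the median change, and total RNA as the denominator of density. Thresholds in the direction of the methods (CD over WD) were added after seeing the data. Levels of protein were not analysed here.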

Additional observations from a re-analysis of the deposited data

Results flagged for a closer look

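Gclm, the modifier subunit of the glutathione-forming ligase, had a log2 ribosome density change of -1.06 between the diets (ratio 0.480, 95% counting interval 0.263 to 0.868), because its WD over CD ratio was 2.40 in the light and 1.15 in the heavy fraction. It was flagged as the member whose diet ratio differed between the 2 fractions beyond counting error. Among all loci compared, its density change stood at the 21 percentile, beside 36.1% of loci called lower, so its size was not unusual. The share of all loci whose interval excludes 1 was not counted. The difference between diets was not tested, since each library is 1 pool, and 10 members were examined with no adjustment. The value rests on the light libraries, where Gclm was at 26.9 FPKM in the CD and 64.6 in the WD. The WD light library had the greatest depth and the highest sum of red blood cell markers, and their part in the value was not tested. With 1 library in a group, no library could be examined against others of its own group.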

How the results depend on the processing

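No paired analysis was possible because each group holds 1 library. Of the log2 changes of single members, 334 stayed within their counting interval under the alternatives and 2 moved beyond it, both Gclc after rescaling to the same sum (-0.27 in the light fraction, 1.07 for heavy over light in the WD). The 334 include the settings that alter only the filter, which cannot change a member's own value. The intervals of Nqo1, Blvra and Srxn1 are so wide that staying within them says little. With total RNA as the denominator of density, 6 members had the opposite sign. Of these, 4 had been called, namely Nqo1 (0.26), Gclm (0.21), Hmox1 (-0.355) and Blvra (-0.09), and Gclc (-0.11) and Prdx1 (-0.35) had not. In that setting 1 member was called higher and 0 lower, beside 26.7% and 31% of loci. The share of all loci that changed sign was not counted.

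With a mean of at least 10 FPKM, 5 members and 4069 loci were left, so that counts fell by construction. Members called were then 0 higher and 0 lower in total RNA, 0 lower in the light fraction, 0 and 0 in the heavy fraction, 0 higher and 3 lower for the density change, 3 higher and 2 lower for heavy over light in the CD, and 2 higher in the WD. Shares of loci called higher were then 8.77% in total RNA, 17.1% in the light and 13.3% in the heavy fraction. Shares called lower were 16.2%, 27.2% and 19.2%. For the density change 23.3% of loci were higher and 27.6% lower. For heavy over light they were 34.9% and 31.9% in the CD, and 37.1% were higher in the WD. Loci called in 1 direction numbered 357 to 1510 in place of 1804 to 3924, and with no filter (14043 loci) 2956 to 5708. After rescaling, 1 member was called higher and 5 lower in the light fraction, beside 17.4% and 44.1% of loci. For the density change 1 member was called lower, beside 27.2% of loci, and the median over the members turned from -0.21 to 0.12. With a mean of at least 10 FPKM the medians over the members were -0.53 for the density change and -0.07 for heavy over light in the WD. With thresholds in the direction of the methods (CD over WD, chosen after seeing the data), 4 members in place of 2 were called higher in the light fraction, beside 32.2% of loci. Those thresholds moved the share of higher among all calls from 43.8% to 58.4% in total RNA, from 49.1% to 61.0% in the light and from 45.7% to 56.6% in the heavy fraction. Rescaling moved the median of all loci by over 0.1 in the light fraction (to -0.29), for the density change (to 0.28) and for heavy over light in the WD (to 0.26), and to 0.12 in total RNA. Pseudocounts and centring left each count of members and share of loci within 1.5 times. Depth limits Nqo1, Blvra, Srxn1 and Hmox1 most, since their values in total RNA rest on 1 to 11 fragments.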
